A study of Mus musculus with 6 samples.

Results

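The genes described here are 34 NF-kB and inflammatory secretory genes: chemokines, cytokines, the NF-kB subunits, their IkB inhibitors, inducible regulators of the pathway, adhesion molecules, a prostaglandin synthase and the IL-33 receptor. They are named by symbol, and 34 of 34 were found among the 24062 genes of the count table. The set was selected on measured values of these same libraries, with the level of the genes in p27 OE, and in p27 OE 2 in particular, already known. Every value of these genes in that contrast is therefore a description and carries no test.

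The cells were mouse embryonic fibroblasts, which are connective tissue cells cultured from embryos, here of the strain C57BL/6, and their RNA was sequenced. In the p27 OE group a lentivirus overexpressed p27, the product of Cdkn1b and an inhibitor of cyclin-dependent kinases, while the EV control group is named by an abbreviation that the labels do not spell out. Both groups were taken at day 4, when the cells with p27 were, per the labels, non-senescent, and each group had 3 libraries. The labels name neither the promoter of the virus nor separate cultures or embryos behind the numbered libraries, so p-values measure only the spread between these libraries, which may be technical. A dataset number, 10, stands in the titles of the EV control libraries alone, and a difference between the groups in handling cannot be told apart from p27. Total counts ran from 34920728 to 52098220 per library, and 3 counts, the limit that a count of 0 allows, corresponded to 0.0556 to 0.0848 CPM (counts scaled to a common library size, with TMM factors). Such limits cover counting error only.

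The overexpressed gene was high in each library of its group. Cdkn1b stood at 52.2, 49.9 and 51.2 CPM in EV control 1, 2 and 3, against 419, 978 and 460.0 CPM in p27 OE 1, 2 and 3. With n = 3 per group the difference came to 3.60 ± 0.35 (SE) on the log2 scale, and edgeR without a block gave it an adjusted p of 0.180, or 0.00105 once p27 OE 2 was left out. Counts do not tell the cell's own Cdkn1b transcript from the viral one. p27 OE 2 thus held 2.13 times as much Cdkn1b as the next library, and the part of that difference in what follows was not tested.

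NF-kB transcription factors are dimers of Rel family proteins that IkB proteins hold inactive in the cytoplasm. Signals from TNF, IL-1 and Toll-like receptors activate the IkB kinase complex, IkB is degraded, and the dimers bind kB sites in the promoters and enhancers of their targets. Those targets include chemokines, cytokines and adhesion molecules, and also the genes of IkB-alpha, A20 and several Rel proteins, through which the pathway restrains and renews itself. In fibroblasts the pathway is known for the secretion of factors that attract leukocytes and as a driver of the secretory state of senescent cells.

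The kB consensus, searched on both strands, was present in the RefSeq promoter window (250 bases before to 50 after the start, GRCm38.p6) of 12 of the 26 genes of the set that had a window. That is 46.2%, against 5.14% of 27025 genes with a window and 6.40% of the 10476 tested genes among them. The 12 were Ccl9, Ccl20, Cxcl1, Cxcl2, Cxcl10, Il6, Nfkb2, Rel, Nfkbia, Nfkbie, Bcl3 and Tnfaip3. A looser pattern, GGG and CC with any 4 or 5 bases between them, was found in 20 of the 26 (76.9%), but also in 82.6% of the tested genes. No window was matched for Ccl2, Ccl5, Ccl7, Ccl11, Cxcl5, Nfkb1, Relb and Vcam1. A match is a description of the letters and not of a bound site. Many of these genes are textbook NF-kB targets, and the set was put together with that knowledge. The sequences below are shown because they belong to genes on which the results turn. They are read 5′ to 3′ on the strand of the gene, with genome coordinates (GRCm38.p6), and the capitals mark the match, on either strand.
Cxcl1, chr5:90891159-90891199, forward strand: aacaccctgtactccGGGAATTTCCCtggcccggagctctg
Cxcl2, chr5:90903787-90903827, forward strand: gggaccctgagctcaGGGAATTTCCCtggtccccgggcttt
Cxcl10, chr5:92348968-92349007, reverse strand: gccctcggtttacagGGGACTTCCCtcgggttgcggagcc
Ccl20, chr1:83116671-83116710, forward strand: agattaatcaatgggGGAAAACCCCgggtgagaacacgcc
Il6, chr5:30013055-30013094, forward strand: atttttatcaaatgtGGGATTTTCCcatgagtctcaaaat
Nfkb2, chr19:46304683-46304723, forward strand: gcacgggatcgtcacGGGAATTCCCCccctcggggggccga
Rel, chr11:23771036-23771076, reverse strand: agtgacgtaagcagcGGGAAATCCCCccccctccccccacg
Nfkbia, chr12:55492652-55492691, reverse strand: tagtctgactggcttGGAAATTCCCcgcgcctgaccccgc
Nfkbie, chr17:45555579-45555618, forward strand: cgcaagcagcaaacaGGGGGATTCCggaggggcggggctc
Tnfaip3, chr10:19015411-19015437, reverse strand: actggaatttccatcGGAAATCCCCct

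In Cxcl1 and Cxcl2 the capitals are the same 11 letters, a run that matches the consensus on both strands. It lies 71 to 61 bases before the start of Cxcl1 and 97 to 87 bases before that of Cxcl2. The match of Nfkbia lies 29 to 20 bases before the start, that of Il6 44 to 35 bases before it and that of Ccl20 80 to 71 bases before it.

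p27 OE 2 stood apart from the other 5 libraries in most of the set. Of the 34 genes, 29 had enough counts to be tested, and in 27 of these 29 p27 OE 2 was the highest of the 6 libraries, against 17.6% of all 14090 tested genes. It reached at least 1.5 times the highest of the other 5 libraries in 19 of the 29 (1.24% of all tested genes) and at least 2 times in 14 of the 29 (0.376%). In 0 of the 29 was it the lowest of the 6 (17.3%), and in 0 did it lie at or below the lowest of the others divided by 1.5 (0.774%). The median ratio of p27 OE 2 to the highest of the other 5 was 1.96 in the 29 genes and 0.874 in all tested genes. Because the genes were chosen with this library's values known, these counts describe the choice as much as the cells. The genes kept out by the filter were Ccl8, Ccl17, Il1a, Il1b and Tnf. The filter asks for counts in several libraries, so a gene present in p27 OE 2 alone does not pass it.

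**Figure D1:**
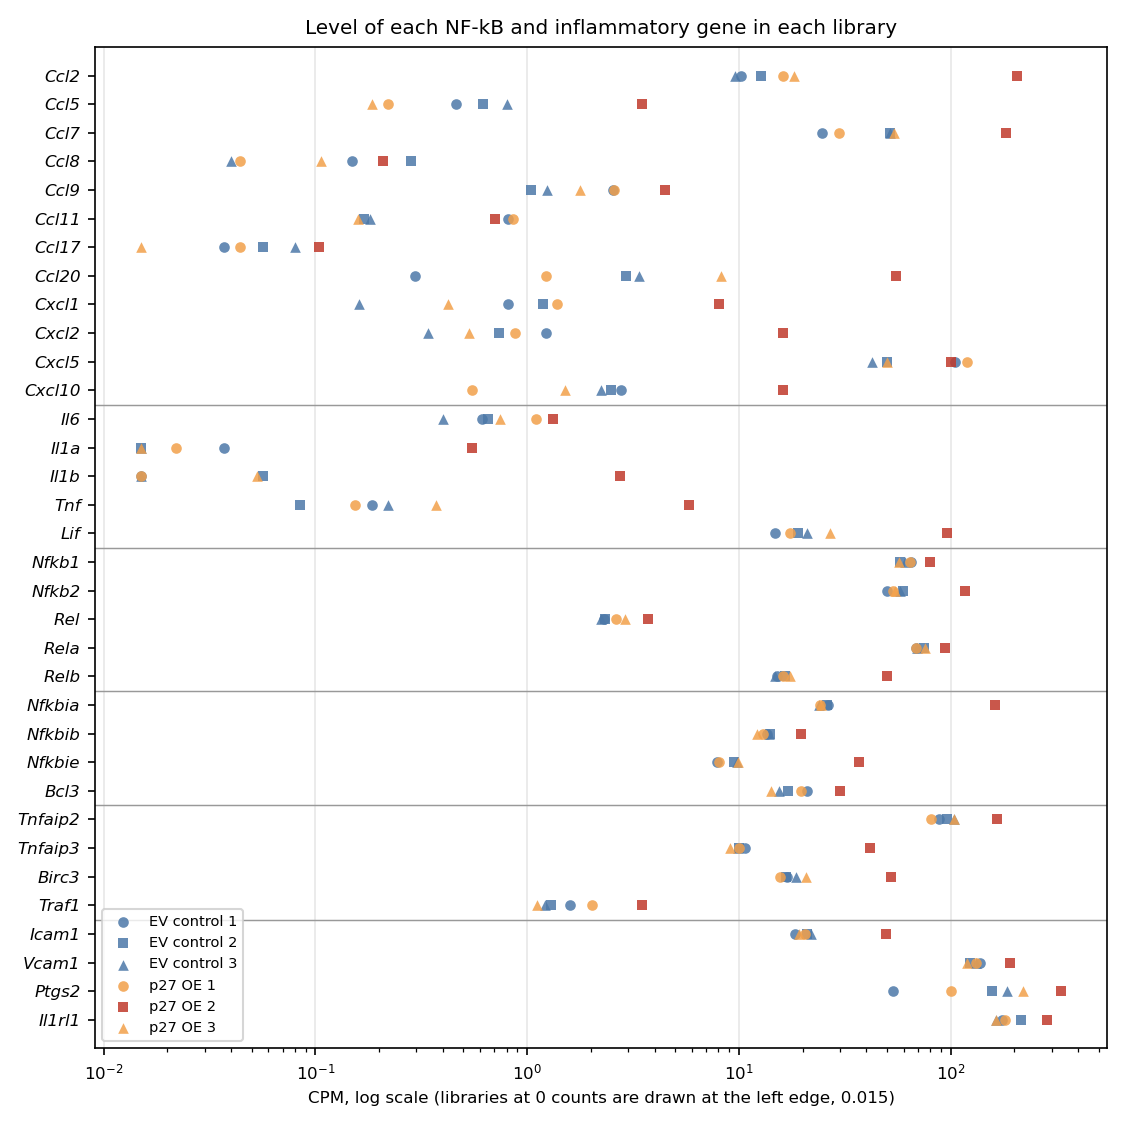
CPM (log axis) of each of the 34 genes in each of the 6 libraries, grouped by role; blue marks the EV control libraries, orange p27 OE 1 and 3 and red p27 OE 2, and libraries at 0 counts are drawn at the left edge. In 27 of the 29 tested genes the red square is the point farthest to the right, by 11.4 times over the next library for Ccl2.

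CC chemokines attract monocytes, lymphocytes and eosinophils. Values are given from here on in the order of the library numbers 1, 2 and 3. Ccl2, the main attractant of monocytes, was at 10.3, 12.7 and 9.63 CPM in EV control, against 16.2, 206 and 18.2 CPM in p27 OE. Ccl7, which acts on the same receptor among others, was at 24.7, 51.8 and 51.8 CPM in EV control, against 29.8, 182 and 53.8 CPM in p27 OE. Ccl20, the ligand of CCR6, was at 0.296, 2.94 and 3.38 CPM in EV control, against 1.23, 55.0 and 8.24 CPM in p27 OE. For all of these p27 OE 2 was the highest library, but the others differ: both other p27 OE libraries lay above every EV control library for Ccl2, while for Ccl7 and Ccl20 the groups overlapped. Without p27 OE 2 the log2 fold change of Ccl2 went from 2.89 ± 1.03 (SE, n = 3 per group, as for every ± below unless stated) to 0.67, that of Ccl20 from 3.30 ± 1.397 to 1.11 and that of Ccl7 from 1.05 ± 0.67 to -0.03.

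The remaining CC chemokines were at lower counts. Ccl5, which attracts T cells, was at 0.463, 0.622 and 0.801 CPM in EV control, against 0.220, 3.47 and 0.186 CPM in p27 OE. Here p27 OE 2 was the highest library and p27 OE 1 and 3 were the lowest. The log2 fold change of Ccl5 was 1.03 ± 1.09 with all libraries and -1.61 without p27 OE 2, so its direction rested on that library. Ccl9 was at 2.54, 1.05 and 1.24 CPM in EV control, against 2.57, 4.49 and 1.78 CPM in p27 OE, with overlapping groups. Ccl11, eotaxin, was 1 of the 2 tested genes in which p27 OE 2 was not the highest: it was at 0.815, 0.170 and 0.180 CPM in EV control, against 0.857, 0.704 and 0.159 CPM in p27 OE. Its high values were thus those of both libraries numbered 1 and of p27 OE 2. Ccl8 had 8, 10 and 2 counts in EV control and 2, 8 and 4 in p27 OE, and Ccl17 had 2, 2 and 4 counts and 2, 4 and 0 counts, all too few to compare.

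Among CXC chemokines, the neutrophil attractants Cxcl1 and Cxcl2 were low in fibroblasts of both groups except in p27 OE 2. Cxcl1 was at 0.815, 1.19 and 0.160 CPM in EV control, against 1.38, 8.09 and 0.424 CPM in p27 OE. Cxcl2 was at 1.22, 0.735 and 0.340 CPM in EV control, against 0.879, 16.2 and 0.530 CPM in p27 OE. p27 OE 2 exceeded the next library 5.84 times for Cxcl1 and 13.3 times for Cxcl2, and the other 5 libraries overlapped. Within library numbers Cxcl1 was higher in p27 OE each time, by 0.70, 2.67 and 1.01 on the log2 scale (0.1 CPM added to each value), and Cxcl2 was not (-0.43, 4.29 and 0.52).

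Cxcl10, an interferon-inducible attractant of T cells, was at 2.78, 2.49 and 2.22 CPM in EV control, against 0.549, 16.1 and 1.51 CPM in p27 OE. As for Ccl5, p27 OE 2 lay above and p27 OE 1 and 3 below every EV control library, and the log2 fold change went from 1.27 ± 1.10 to -1.28 without p27 OE 2. Cxcl5, another neutrophil attractant, was at 104.9, 50.04 and 42.6 CPM in EV control, against 119.7, 101 and 50.2 CPM in p27 OE. It was the other gene in which p27 OE 2 was not the highest library: as for Ccl11, both libraries numbered 1 and p27 OE 2 were high and the remaining 3 low.

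Cytokines of the set divided into those nearly silent outside p27 OE 2 and those expressed throughout. Tnf, whose product activates NF-kB through its receptors, had 10, 3 and 11 counts in EV control and 7, 222 and 14 counts in p27 OE. Il1b had 0, 2 and 0 counts in EV control and 0, 105 and 2 in p27 OE. Il1a had 2, 0 and 0 counts and 1, 21 and 0 counts. These are the genes of the pathway's own classical activators, and in p27 OE 2 they reached 5.79, 2.74 and 0.548 CPM. Lif, a cytokine of the IL-6 family, was at 14.8, 19.0 and 21.04 CPM in EV control, against 17.5, 96.2 and 26.9 CPM in p27 OE, a log2 fold change of 1.36 ± 0.61 that was 0.28 without p27 OE 2.

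Il6 behaved otherwise. It was at 0.611, 0.650 and 0.4004 CPM in EV control, against 1.10, 1.33 and 0.742 CPM in p27 OE, so every p27 OE library lay above every EV control library and p27 OE 2 was only 1.21 times the next. The log2 fold change was 0.94 ± 0.35 and stayed at 0.74 without p27 OE 2. Within library numbers the differences were 0.75, 0.93 and 0.75. These rest on few counts per library.

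Of the NF-kB subunit genes, Relb and Nfkb2, which encode the partners of the noncanonical pathway, stood farthest above the next library in p27 OE 2. Relb was at 15.1, 16.4 and 14.8 CPM in EV control, against 16.2, 50.2 and 17.4 CPM in p27 OE. Nfkb2 was at 49.97, 59.7 and 57.6 CPM in EV control, against 53.5, 117 and 54.4 CPM in p27 OE. The other 5 libraries lay close together for both, and p27 OE 2 exceeded the highest of them 2.88 and 1.96 times. Rela, which encodes p65, was at 68.4, 74.7 and 69.2 CPM in EV control, against 68.4, 94.0 and 76.1 CPM in p27 OE, and Nfkb1, which encodes p50 and its precursor, at 64.9, 57.5 and 61.1 CPM and at 64.1, 79.7 and 56.9 CPM. For these genes of the main canonical dimer the excess of p27 OE 2 over the next library was smaller, 1.24 and 1.23 times. Rel, which encodes c-Rel, was low, at 2.30, 2.35 and 2.24 CPM in EV control, against 2.64, 3.73 and 2.89 CPM in p27 OE. Like Ccl2 and Il6, Rel had its 3 p27 OE libraries above its 3 EV control libraries (log2 fold change 0.43 ± 0.20, and 0.27 without p27 OE 2).

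Among the inhibitors, Nfkbia, which encodes IkB-alpha and is itself induced by NF-kB, was at 26.4, 26.1 and 24.0 CPM in EV control, against 24.1, 162 and 24.3 CPM in p27 OE. The other 5 libraries spanned only 24.0 to 26.4 CPM, and p27 OE 2 was 6.14 times the highest of them. Nfkbie, IkB-epsilon, showed the same layout with 7.85, 9.44 and 9.83 CPM in EV control, against 8.02, 36.8 and 9.89 CPM in p27 OE. Nfkbib, IkB-beta, differed less, with 13.5, 14.1 and 13.9 CPM in EV control, against 13.01, 19.7 and 12.2 CPM in p27 OE. In Nfkbib p27 OE 1 and 3 lay just below the EV control libraries. Bcl3, a nuclear IkB protein that acts as a coactivator of p50 and p52, was at 21.1, 17.0 and 15.5 CPM and at 19.7, 30.1 and 14.2 CPM. Without p27 OE 2 the log2 fold changes of all 4 genes were between -0.13 and -0.01.

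The inducible regulators were likewise highest in p27 OE 2. Tnfaip3, which encodes A20, a ubiquitin-editing enzyme that shuts the pathway off, was at 10.7, 10.1 and 9.87 CPM in EV control, against 10.0, 41.7 and 9.07 CPM in p27 OE. Birc3, which encodes the ubiquitin ligase cIAP2, was at 16.9, 16.7 and 18.6 CPM and at 15.6, 52.1 and 20.8 CPM. Traf1, a TNF receptor adaptor, was at 1.59, 1.30 and 1.22 CPM and at 2.02, 3.50 and 1.11 CPM, and Tnfaip2 at 88.2, 96.4 and 104 CPM and at 80.7, 167 and 103 CPM. p27 OE 2 exceeded the next library by 3.89, 2.50, 1.73 and 1.61 times in this order, and in none of the 4 did p27 OE 1 and 3 both lie above or both below EV control.

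The remaining genes act at the cell surface or make lipid mediators. Icam1, an adhesion molecule that binds leukocyte integrins, was at 18.3, 20.9 and 21.9 CPM in EV control, against 20.5, 49.7 and 19.2 CPM in p27 OE. Vcam1 was at 137, 124 and 132 CPM and at 132, 191 and 119.7 CPM. Il1rl1, the receptor of IL-33, was at 175, 214 and 164 CPM and at 180.5, 285 and 165 CPM. The excess of p27 OE 2 was 2.27 times for Icam1, 1.395 for Vcam1 and 1.33 for Il1rl1. Ptgs2, the inducible cyclooxygenase, was at 53.4, 157 and 184 CPM in EV control, against 100.0, 332 and 220.5 CPM in p27 OE. In Ptgs2 the libraries numbered 1 were the lowest of their groups, and within numbers p27 OE was higher by 0.91, 1.08 and 0.26 on the log2 scale. The log2 fold change of Ptgs2 was 0.73 ± 0.56 with all libraries and 0.29 without p27 OE 2.

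**Figure D2:**
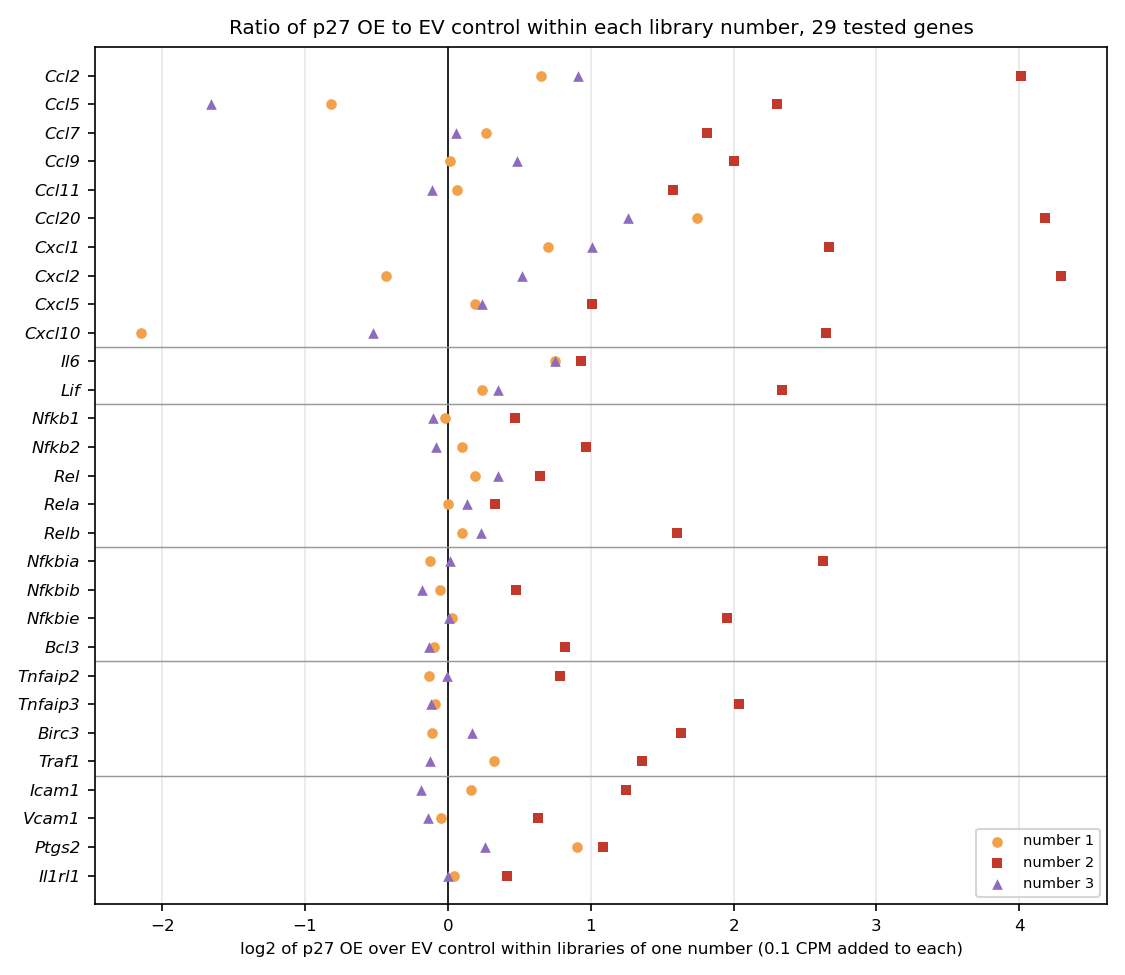
Log2 ratio of p27 OE to EV control within libraries of the same number (0.1 CPM added to each value) for each of the 29 tested genes, 1 point per number. The medians over the 29 tested genes were 0.04 for number 1, 1.58 for number 2 and 0.02 for number 3.

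Over the set, the log2 fold change was above 0 in 29 of 29 tested genes, against 49.7% of all tested genes. Its median was 0.76 in the set and -0.001 for all tested genes. Without p27 OE 2 the log2 fold change was above 0 in 14 of the 29 (48.3%), near the 50.9% of all tested genes. The median was then -0.01, and 13 of the 29 differed by less than 0.1 in size. With the replicate number as a block the median was 0.57. With the block and without both libraries numbered 2 it was 0.03, with 19 of 30 tested genes above 0, against 7274 of 14319 over all genes. The medians by role, with all libraries and without p27 OE 2, were 1.16 and 0.37 for the 10 tested chemokines, 1.15 and 0.51 for the 2 tested cytokines, Il6 and Lif, 0.43 and 0.03 for the subunits, 0.63 and -0.07 for the inhibitors and Bcl3, 0.72 and 0.01 for the inducible regulators and 0.37 and -0.04 for Icam1, Vcam1, Ptgs2 and Il1rl1.

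The edgeR quasi-likelihood fit without a block called 0 genes of the set, as it called 0 of all 14090 genes (0.0%), although 1017 of all genes and 2 of the set had an unadjusted p under 0.05. DESeq2 without a block called 89 of the 14090 tested genes and 0 of the 29 of the set. With the replicate block edgeR called 535 genes higher (3.8%) and 512 lower (3.63%), and of the set 1 of 29, Cxcl1, was higher (log2 1.78 ± 0.39) and 0 were lower. With the block and upper-quartile scaling the split over all genes was 483 higher and 736 lower. The fit with the block and without the libraries numbered 2, on 2 pairs, called 3.51% of 14319 genes higher and 2.97% lower. It called 2 of 30 genes of the set higher, Ccl2 and Ccl20, and 1 lower, Cxcl10. As the set was chosen on this contrast, nothing is read from these counts.

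In p27 OE 1 and 3 the set showed no common direction. In p27 OE 1, 8 of the 29 genes lay above the range of the EV control libraries, 5 below it and 16 within it, and for all tested genes the shares were 27.1% above, 28.3% below and 44.6% within. In p27 OE 3, 11 lay above, 9 below and 9 within, against 26.7%, 28.4% and 44.8% of all tested genes. Both libraries were above all EV control libraries for 3 of the 29 (9.98% of all tested genes), Ccl2, Il6 and Rel, and both below for 3 of the 29 (11.6%), Ccl5, Cxcl10 and Nfkbib. All 3 p27 OE libraries were above all EV control libraries for 3 of the 29 (6.61%), the same Ccl2, Il6 and Rel, and below for 0 (8.28%).

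**Figure D3:**
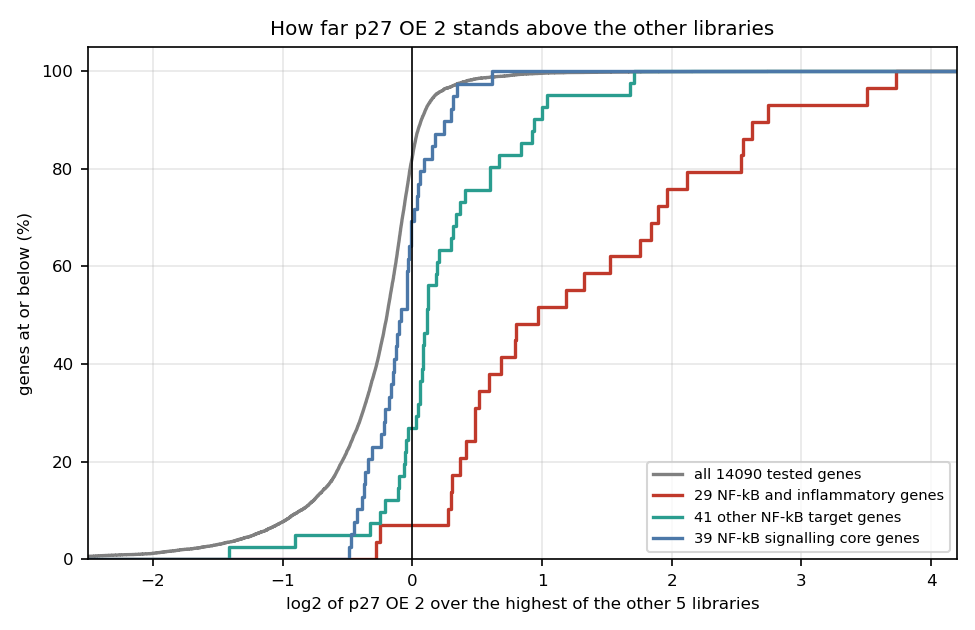
Cumulative share of genes (%) by the log2 ratio of p27 OE 2 to the highest of the other 5 libraries in the 29 tested genes of the set, 41 other NF-kB target genes, 39 signalling core genes and all 14090 tested genes; values beyond the axis are drawn at its ends. The set has a median ratio of 1.96, all tested genes of 0.874.

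Per length (CPM per kilobase of merged exons, GENCODE M21 for GRCm38), which allows genes to be compared, Ccl7 had the highest mean level of the set in EV control, 53.4, followed by Cxcl5 at 35.3, Ptgs2 at 28.7, Il1rl1 at 26.8, Rela at 23.0 and Tnfaip2 at 19.3. Nfkbia was at 15.8 and Ccl2 at 9.55. In p27 OE 2 the order of levels per length was Ccl7 at 227, Ccl2 at 181, Nfkbia at 100.5 and Ptgs2 at 72.6. Ccl2 and Nfkbia thus ranked higher in that library than by their EV control means.

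Several chemokine genes are neighbours, and neighbours did not share 1 pattern. On chromosome 11 (GRCm38, forward strand) Ccl2 lies from 82035571 to 82037453, and Ccl7 from 82045712 to 82047525, 8.26 kb further on. Both were at least 2 times the next library in p27 OE 2. Ccl11, from 82057823 to 82062955, lies 10.3 kb beyond Ccl7 and was not the highest there, and Ccl8, from 82115185 to 82116799, had at most 10 counts in any library. On chromosome 5 (forward strand) Cxcl1 lies from 90891241 to 90893115 and Cxcl2 from 90903871 to 90905938, 10.8 kb apart, and both again were at least 2 times the next library in p27 OE 2, while Cxcl5, from 90759360 to 90761624 and 129.6 kb before Cxcl1, was not the highest there. Since the libraries carry no strand information, antisense transcripts over these genes would be counted with them.

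Other genes of the pathway were read from lists written from general knowledge of the pathway, with an earlier summary of these data known, so the lists are not independent of these values. Of 134 tested genes in 5 such lists, edgeR without the block called 0, with 0.0% as the share of all genes, DESeq2 called 1 and edgeR with the block called 8, all higher, where it called 3.8% of all genes higher and 3.63% lower.

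The signalling core, meaning adaptors, kinases and ubiquitin enzymes, had 39 of 39 genes tested, with a median log2 fold change of 0.04. In 12 of the 39 p27 OE 2 was the highest library and in 9 the lowest, against 17.6% and 17.3% of all tested genes. In 1 of the 39, the adaptor gene Traf3, p27 OE 2 was at least 1.5 times the next library, against 1.24% of all tested genes (41.6, 37.5 and 37.3 CPM in EV control, and 42.9, 65.7 and 40.4 CPM in p27 OE). Chuk, which encodes the IkB kinase IKK-alpha, was at 35.4, 48.0 and 45.3 CPM in EV control, against 40.3, 53.9 and 58.6 CPM in p27 OE. It rose by 0.24 ± 0.07 with the block (edgeR adjusted p 0.0408, n = 3 pairs, as for every value with the block), and the size stayed near this in the other settings with the block while the call was lost in some. It was 0.18 without the libraries numbered 3 (adjusted p 0.392), 0.22 with upper-quartile scaling (0.0541) and 0.25 by DESeq2 with the block (0.0630).

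Of 26 upstream receptors 23 were tested, and 3 rose with the block and 0 fell, against 3.8% and 3.63% of all tested genes. Tnfrsf12a, the receptor of TWEAK, was at 53.3, 109 and 104 CPM in EV control, against 74.5, 144 and 141 CPM in p27 OE (0.44 ± 0.05, edgeR adjusted p 0.000452). Tnfrsf11b, which encodes the decoy receptor osteoprotegerin, was at 48.0, 43.4 and 37.3 CPM in EV control, against 56.3, 65.3 and 67.6 CPM in p27 OE (0.56 ± 0.11, adjusted p 0.0289). In Tnfrsf11b the groups did not overlap, and in Tnfrsf12a the libraries numbered 1 were low in both groups. In neither gene did p27 OE 2 stand apart, since it was 1.02 and 0.967 times the highest other library. Cd40, a receptor of the TNF family, was at 0.519, 3.90 and 4.54 CPM in EV control, against 1.25, 7.67 and 5.46 CPM in p27 OE (0.75 ± 0.20, adjusted p 0.0373, and 0.149 without the libraries numbered 2). Of the 23 receptors, 2, Tnfrsf9 and Cd14, were at least 1.5 times the next library in p27 OE 2, against 1.24% of all tested genes.

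Of 16 cytokine and chemokine receptors 8 were tested and 0 called with the block. Of 44 other secreted inflammatory factors 23 were tested, and 1, Cxcl14, rose with the block, where 3.8% of all tested genes did. Cxcl14 was at 62.4, 58.7 and 50.02 CPM in EV control, against 78.6, 71.6 and 59.5 CPM in p27 OE (0.29 ± 0.06, edgeR adjusted p 0.00975, and 0.0597 without the libraries numbered 3). In 2 of the 23, Cxcl16 and Csf1, p27 OE 2 was at least 1.5 times the next library, against 1.24% of all tested genes. Csf1, which encodes the macrophage growth factor M-CSF and was chosen after its values were seen, was at 216, 355 and 359 CPM in EV control, against 265, 787 and 465 CPM in p27 OE.

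Of 44 other NF-kB target genes 41 were tested. In 30 of the 41 p27 OE 2 was the highest library, against 17.6% of all tested genes. In 10 of the 41 it was at least 1.5 times the next, against 1.24%: Ier3, Gadd45b, Irf1, Zc3h12a, Junb, Mmp3, Mmp9, Mmp10, Zfp36 and Sele. These, like Traf3, Tnfrsf9, Cd14 and Cxcl16 above and Nos2 below, were named after their values were seen. Ier3, an early response gene, was at 46.7, 66.2 and 64.9 CPM in EV control, against 40.2, 217 and 65.7 CPM in p27 OE, and Irf1, an interferon regulatory factor, at 30.2, 22.9 and 22.1 CPM and at 24.9, 62.1 and 18.4 CPM. Nos2, the inducible nitric oxide synthase, was not tested: it had 103 counts (2.69 CPM) in p27 OE 2 and 0 counts in each of the other 5 libraries. The median log2 fold change of the 41 was 0.14 with all libraries and -0.05 without p27 OE 2. The fit with the block called 3 of the 41 higher and 0 lower, against 3.8% and 3.63% of all tested genes. C3, complement component 3, was at 2.83, 1.81 and 1.36 CPM in EV control, against 5.47, 5.71 and 2.09 CPM in p27 OE (1.09 ± 0.21, edgeR adjusted p 0.00788). Ehd1, an endocytic recycling gene, rose by 0.24 ± 0.06 (adjusted p 0.0308) and Cflar, which encodes the caspase-8 inhibitor FLIP, by 0.21 ± 0.06 (adjusted p 0.0464). Both calls, though not the direction, were lost without the libraries numbered 2 (0.17 and 0.19 on the log2 scale, adjusted p 0.175 and 0.148) or 3 (0.24 and 0.24, adjusted p 0.173 and 0.189), and that of Cflar also with upper-quartile scaling (0.0618) and by DESeq2 with the block (0.0817).

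Markers of other cell types were read in the same libraries. In bulk RNA, more cells of a type and more RNA per cell cannot be told apart. Fibroblast markers, led by the collagen genes Col1a1 and Col1a2, summed to between 54170 and 60130 CPM in every library, a sum carried mostly by these collagens. With the block edgeR called 2 of the 11 markers lower and 0 higher, against 3.63% and 3.8% of all tested genes. Both were named after their values were seen: the growth factor receptor gene Pdgfra (304, 144 and 132 CPM in EV control, against 233, 106 and 84.9 CPM in p27 OE, -0.48 ± 0.06, edgeR adjusted p 0.000575) and the proteoglycan gene Lum (-0.23 ± 0.06, adjusted p 0.0430). The 17 macrophage markers summed to 66.9, 79.7 and 80.4 CPM in EV control, against 65.8, 109 and 83.4 CPM in p27 OE, and 13 of the 17 were highest in p27 OE 2. Of the 16 tested, 12 were highest there, against 17.6% of all tested genes. The macrophage antigen gene Emr1 was at 1.91, 2.15 and 2.12 CPM in EV control, against 2.81, 5.06 and 3.05 CPM in p27 OE, and Csf1r, the receptor of M-CSF, at 2.59, 2.32 and 2.72 CPM and at 3.14, 5.32 and 2.62 CPM. Lyz2, the lysozyme gene with most counts in the list, was at 33.4, 41.8 and 41.3 CPM and at 28.6, 53.1 and 39.5 CPM. Cd68 and Mpeg1, also macrophage markers, were not highest in p27 OE 2. In p27 OE 1 and 3 the markers did not share 1 direction. These libraries both lay below all EV control libraries for 2 of the 16 tested, Cd68 and Mpeg1 (11.6% of all tested genes), and both above for 4 (9.98%). The summed level in p27 OE 1, 65.8 CPM, was below that of each EV control library. All p27 OE libraries were above all EV control libraries for 4 of the 16 tested (6.61% of all tested genes), Ptprc, Emr1, C1qb and Mrc1, and below for 0 (8.28%). With the block edgeR called 1 of the 16 higher, Emr1, and 0 lower (3.8% and 3.63%). The median log2 fold change of the 16 was 0.44, and 0.28 without p27 OE 2, with 13 of the 16 above 0 (50.9% of all tested genes). Macrophages express many genes of the set, and the part of these cells in the values of p27 OE 2 was not tested.

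Lymphocyte markers summed to between 2.24 and 6.05 CPM, with Cd3e, Cd3d, Cd3g and Ms4a1 at 0 counts in all 6 libraries. Of the neutrophil and mast cell markers S100a9, Elane and Tpsb2 were at 0 in all 6, and the list summed to at most 0.722 CPM. Its sum in p27 OE 2, 0.0261 CPM, was below the 0.0783 CPM that 3 counts make there, too low to rank the libraries. Endothelial markers summed to between 3.90 and 6.48 CPM and epithelial markers to between 9.89 and 12.2 CPM, and neither sum was highest in p27 OE 2. With the block edgeR called 1 of 5 tested endothelial markers higher, Emcn (3.8% of all tested genes). It called the 1 tested lymphocyte marker, Lck, lower (3.63%). All p27 OE libraries were above all EV control libraries for Emcn (6.61%), and below for the epithelial Krt18 and for Kit of the mast cell list (8.28%).

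**Figure D4:**
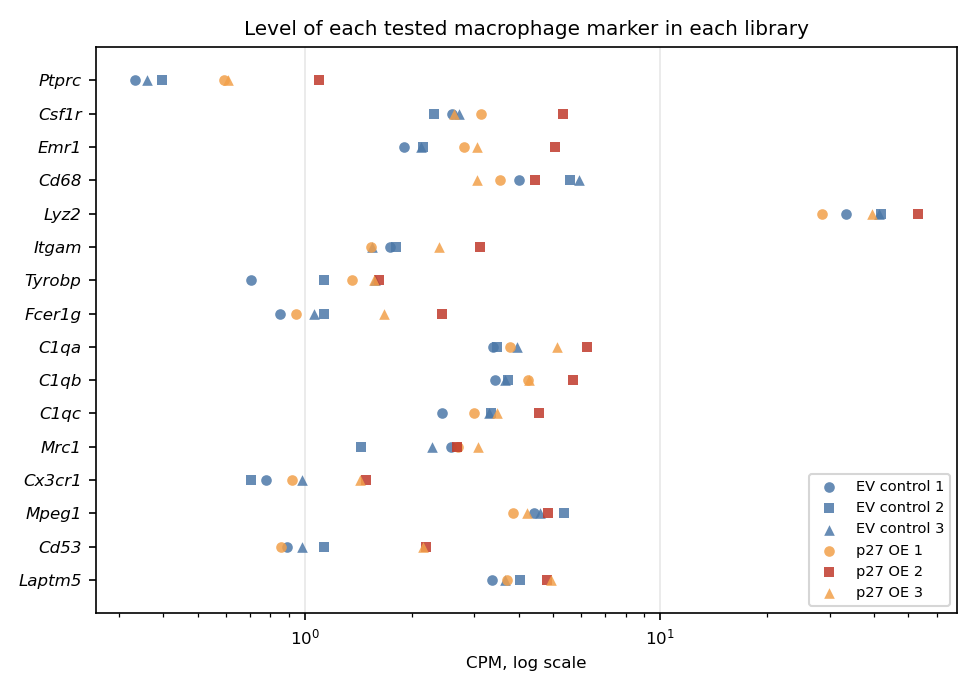
CPM of the macrophage markers in each of the 6 libraries (log axis), with blue for EV control, orange for p27 OE 1 and 3 and red for p27 OE 2. The plot shows the 16 tested markers of 17, and the red points are the highest in 12 of the 16, with summed levels over all 17 of 109 CPM in p27 OE 2 and of 65.8 to 83.4 CPM in the other 5.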

How the data were processed

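Libraries were made with version 2 of the TruSeq RNA kit, which does not mark strand, per the labels' protocols. The authors deposited 1 table of raw, whole-number counts per gene for the 6 libraries. The submitters' processing notes name the mm10 build, Subread, featureCounts 1.4.6, Bowtie2 2.2.6 and TopHat2 2.0.14. For annotation, strand setting and reads with several matches the choice was not given in the sources used here. Groups were taken from the titles, and 0 columns were left unmapped.

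Counts were filtered with filterByExpr (minimum count 10, total 15), which left 14090 genes, scaled by TMM and tested with edgeR 4.0.16 in R 4.3.3 (quasi-likelihood F test, robust, two-sided, Benjamini-Hochberg over all tested genes, threshold 0.05), without a block. The alternatives, among them the replicate number as a block, DESeq2 1.42.0, other scalings and filters and leaving out libraries, were listed before the fits were run. Counts of genes in which p27 OE 2 stands apart under other scalings were added after seeing the data. SE were taken from the F statistic. Same-numbered libraries deviated together from their group means (correlations 0.77, 0.42 and 0.54 for numbers 1, 2 and 3), so the numbers were taken to pair them, although EV control 2 correlated with p27 OE 3 at 0.39 and EV control 3 with p27 OE 2 at 0.41. No library was a repeat of another (lowest mean chi-square per gene between replicates 9.67). On simulated counts for 13982 genes with 100 changed per size, the fit without a block recovered 0 at a log2 change of 0.585 and 32 at 1, and the fit with it 91 and 95, with 15 false calls. The simulation gave libraries of the same number a shared mean, used 1 fixed dispersion and held no library that stands apart. The advantage of the block was thus built in, and the recovery does not carry over to the measured libraries.

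The genes of the set and the lists were chosen with earlier results of these data known. Named genes are every gene of the set, Cdkn1b, the genes called with the block in each pathway list (at most the 5 of smallest p and the 2 of largest change) and leading or defining cell type markers. Promoter windows are from RefSeq, positions and exon lengths from GENCODE M21.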

Additional observations from a re-analysis of the deposited data

How the results depend on the processing

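Without a block the count of all genes called was 0, and it was 0 with RLE or upper-quartile scaling, 1 with no filter, 89 with DESeq2 and 0 to 1 when single libraries were left out. With the replicate block it was 1047, with RLE scaling 1042, with upper-quartile scaling 1219, with no filter 1416, with at least 1 CPM in 3 libraries 1018, with DESeq2 830, and 330 to 1741 when both libraries of a number were left out (330 without those numbered 3, 928 without those numbered 2). Pathway genes outside the set numbered 0 without a block and 1 by DESeq2. With the replicate block there were 8, with RLE scaling 10, with upper-quartile scaling 7, with no filter 14, with at least 1 CPM in 3 libraries 8, with DESeq2 6, and 7 to 17 without both libraries of a number. The looser kB pattern matched 20 promoters in place of 12. The median log2 fold change of the set, 0.76, ran from -0.01 without p27 OE 2 to 1.01 when single libraries were left out, and with the replicate block from 0.03 without the libraries numbered 2 to 0.91. The number of genes at least 1.5 times higher in p27 OE 2 was 19, and 18 with upper-quartile scaling or plain totals, and 27 were highest there under each scaling. Among single genes, 648 values in other settings stayed within the spread between libraries or on their side of the threshold, 21 moved, and 62 passed the threshold where the fit without a block had not. For genes of the set that spread was the SD of the differences within library numbers, which p27 OE 2 itself widens. Staying within it therefore does not mean that a value was stable. Nfkbia, at 1.46 with all libraries and -0.07 without p27 OE 2, was counted as staying. The 62 values belong to genes outside the set that entered this tally because the fit with the block had called them. That number was therefore largely fixed by the choice of genes, and nothing is read from it. Without p27 OE 2 the log2 fold change of 15 of the 29 tested genes of the set went from above 0 to below it. Among them were Ccl5 (1.03 to -1.61) and Cxcl10 (1.27 to -1.28). The share of the set above 0 was then 48.3%, near the 50.9% of all tested genes. Ccl8, Ccl17, Il1a, Il1b and Tnf had too few counts in most libraries to pass the filter with all 6 libraries. Tnf passed it with the block and without the libraries numbered 2 (log2 0.31 ± 0.68, 2 pairs). With the block and no filter all 34 were tested. Cxcl1 and Il1b were then called higher, 2 of 34, where 689 of 18199 genes were.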

Other observations

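Genes outside every list were also searched for those highest in p27 OE 2, at 2 CPM or more there, and were named after their values were seen. By the ratio of p27 OE 2 to the next library Gipr (4.45), Kcnf1 (3.66), the integrin gene Itga2 (3.19) and Kbtbd11 (3.17) led, at 2.14 to 6.81 CPM there. Genes at higher levels included Pgf, which encodes placental growth factor, at 4.13, 13.3 and 15.1 CPM in EV control, against 3.89, 54.7 and 17.3 CPM in p27 OE 1, 2 and 3, and Rgs16, a regulator of G protein signalling, at 20.5, 29.3 and 33.5 CPM and at 24.8, 102 and 46.7 CPM. Slc2a1, the glucose transporter GLUT1, was at 262, 284 and 285 CPM in EV control, against 246, 607 and 213 CPM in p27 OE. Egln3, a prolyl hydroxylase that acts on hypoxia-inducible factors, was at 65.7, 64.7 and 59.4 CPM and at 54.3, 167 and 47.2 CPM. Ndrg1, a stress-responsive gene, was at 64.7, 104 and 111 CPM and at 52.2, 221 and 94.8 CPM, and Bhlhe40, a transcription factor, at 86.2, 132.6 and 132 CPM and at 75.0, 274 and 108.9 CPM. In these genes at higher levels, p27 OE 2 was the highest of the 6 libraries, by 1.99 to 3.17 times over the next, and p27 OE 1 and 3 were not both above the EV control range. In the opposite search, among genes at 2 CPM or more in each of the other 5 libraries, those in which p27 OE 2 lay far below the next library included Rtkn2 (1.73 times lower, at 4.37, 3.87 and 4.204 CPM in EV control, against 3.47, 1.565 and 2.70 CPM in p27 OE), Fras1 (1.56 times) and Mab21l1 (1.53 times).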
